A study of Mus musculus with 10 samples.

Results

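A set of 9 genes that define the macrophage lineage or carry its growth signals were followed in macrophages of mouse 4T1 tumours, sorted with or without podoplanin (PDPN) on their surface. The genes were chosen by name: the colony stimulating factor (CSF) receptor genes Csf1r, Csf2ra and Csf2rb, the transcription factor gene Spi1, the surface marker genes Adgre1 and Ptprc, the intracellular marker genes Cd68 and Aif1, and the receptor kinase gene Mertk. All 9 members were found in the deposited count table of 46603 genes, each in a single row, and all 9 passed the filter on low counts. The tumours were of 4T1, a mammary carcinoma line of mouse origin. Viable CD11B-positive, F4/80-positive cells were split by sorting into PoEMs, the submitters' name for PDPN-positive cells, and non-PoEMs, the PDPN-negative cells. Both fractions came from tumours numbered 1, 2, 4, 5 and 6, which gave 5 PoEM and 5 non-PoEM libraries. Both groups therefore carry the same CD11B and F4/80 gate, and the labels do not say whether each tumour grew in a separate mouse, and if they did not, p-values would measure the spread between these samples alone.

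Macrophages depend on a small set of lineage genes. PU.1, the ETS-family transcription factor encoded by Spi1, is needed for myeloid development and binds the control regions of many macrophage genes, Csf1r among them. CSF1R is the receptor kinase for CSF1 and IL34 that keeps most tissue and tumour macrophages alive, whereas CSF2RA and the signalling chain CSF2RB form the receptor for GM-CSF, the product of Csf2. In tumours, CSF1 signalling is known for recruiting and maintaining macrophages.

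The stretches before the transcription start of 4 members are shown because Spi1 is itself a member and because 3 of the 4 differed between the fractions with the tumour taken into account, in both directions. RefSeq promoter windows (GRCm38.p6) of 5 of the members were used, 6 windows in all. They were searched on both strands for GAGGAA, a core shared by sites of PU.1 and other ETS factors, with TTCCTC as its reverse. In the 250 bases before the start, 4 of the 6 windows held a match, and 23.3% of all 32851 promoter windows of that length did. Each sequence reads 5′ to 3′ on the gene's strand, and capitals mark matches.
Aif1: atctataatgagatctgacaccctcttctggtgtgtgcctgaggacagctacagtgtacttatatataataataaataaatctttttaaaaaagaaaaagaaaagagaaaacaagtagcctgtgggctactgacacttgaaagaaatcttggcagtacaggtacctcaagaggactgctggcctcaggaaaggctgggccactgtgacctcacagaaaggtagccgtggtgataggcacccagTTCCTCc
Cd68: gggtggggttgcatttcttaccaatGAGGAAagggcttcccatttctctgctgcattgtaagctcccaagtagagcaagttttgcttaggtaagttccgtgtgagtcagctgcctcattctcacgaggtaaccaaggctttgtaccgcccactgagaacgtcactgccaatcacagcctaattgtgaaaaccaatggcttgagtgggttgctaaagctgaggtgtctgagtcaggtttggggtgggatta
Mertk: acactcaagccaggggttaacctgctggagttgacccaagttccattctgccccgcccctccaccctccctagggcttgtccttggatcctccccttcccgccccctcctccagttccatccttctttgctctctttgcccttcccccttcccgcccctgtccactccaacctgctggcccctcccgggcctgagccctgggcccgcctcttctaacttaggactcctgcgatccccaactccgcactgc
Csf2ra: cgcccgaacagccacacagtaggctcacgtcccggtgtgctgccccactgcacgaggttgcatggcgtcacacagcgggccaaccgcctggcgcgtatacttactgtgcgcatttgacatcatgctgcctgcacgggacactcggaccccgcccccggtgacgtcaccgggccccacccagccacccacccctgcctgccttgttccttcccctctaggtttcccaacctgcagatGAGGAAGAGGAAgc
The Aif1 window (chr17:35176053-35176302, minus strand) held its match 7 bases before the start, on the reverse strand, and the Cd68 window (chr11:69666171-69666420, minus strand) held its match 225 bases before. The Csf2ra window (chr19:61228419-61228668, minus strand) held adjoining matches 14 and 8 bases before the start. The Mertk window (chr2:128698665-128698914, plus strand) held none, which says only that these letters are not in this stretch. Of the 2 Ptprc windows, 1 held a match. These 2 windows overlap (chr1:138175306-138175555 and chr1:138175127-138175376), so that this gene counts 2 times among the 6. Ptprc also differed between the fractions, and its windows are not printed. Csf1r, Csf2rb, Adgre1 and Spi1 are not shown and are not part of the member counts given here, which therefore do not speak for all members.

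The sorted marker was checked first. Pdpn measured between 189.8 and 247.9 CPM in PoEM libraries and between 10.96 and 29.09 CPM in non-PoEM libraries, so the groups did not overlap. Levels are given as CPM, each count relative to the TMM-scaled library total. Library totals ran from 12597829 to 15406722 counts. The members together took 0.606% to 0.679% of the raw counts in PoEM libraries and 0.680% to 0.702% in non-PoEM libraries. On the TMM scale their sums overlapped, at 5932 to 7014 CPM in PoEM and 6700 to 7222 CPM in non-PoEM libraries. Csf1r was the largest part of these sums. At the lowest-counted member, Mertk, a library still held at least 1407 counts, so counting error was small beside the spread between libraries.

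All 9 core genes were clearly expressed in every library of both fractions, and none differed by more than 1.267-fold. Ptprc, Aif1 and Csf1r were lower in PoEMs, by 1.267-fold, 1.227-fold and 1.185-fold, and none was called higher (quasi-likelihood test of edgeR with a Benjamini-Hochberg adjusted p under 0.05 over all 13595 genes tested). At an unadjusted p under 0.05, 2 members were higher, and DESeq2 called 0 higher and 3 lower. Among all genes tested, 13.6% were called in this comparison, 6.83% higher and 6.77% lower. With the tumour as a block, which compares the fractions within tumours, 6 of the 9 were called: Spi1 joined the lower genes, and Cd68 and Mertk were higher. In that fit 28.2% of all genes were called, 13.8% higher and 14.3% lower. The members' median log2 fold change was -0.12, beside 0.01 over all genes tested, and their changes ran from -0.34 to 0.32. Aif1 was the member whose groups did not overlap in CPM, which 10.5% of all genes tested shared.

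**Figure D1:**
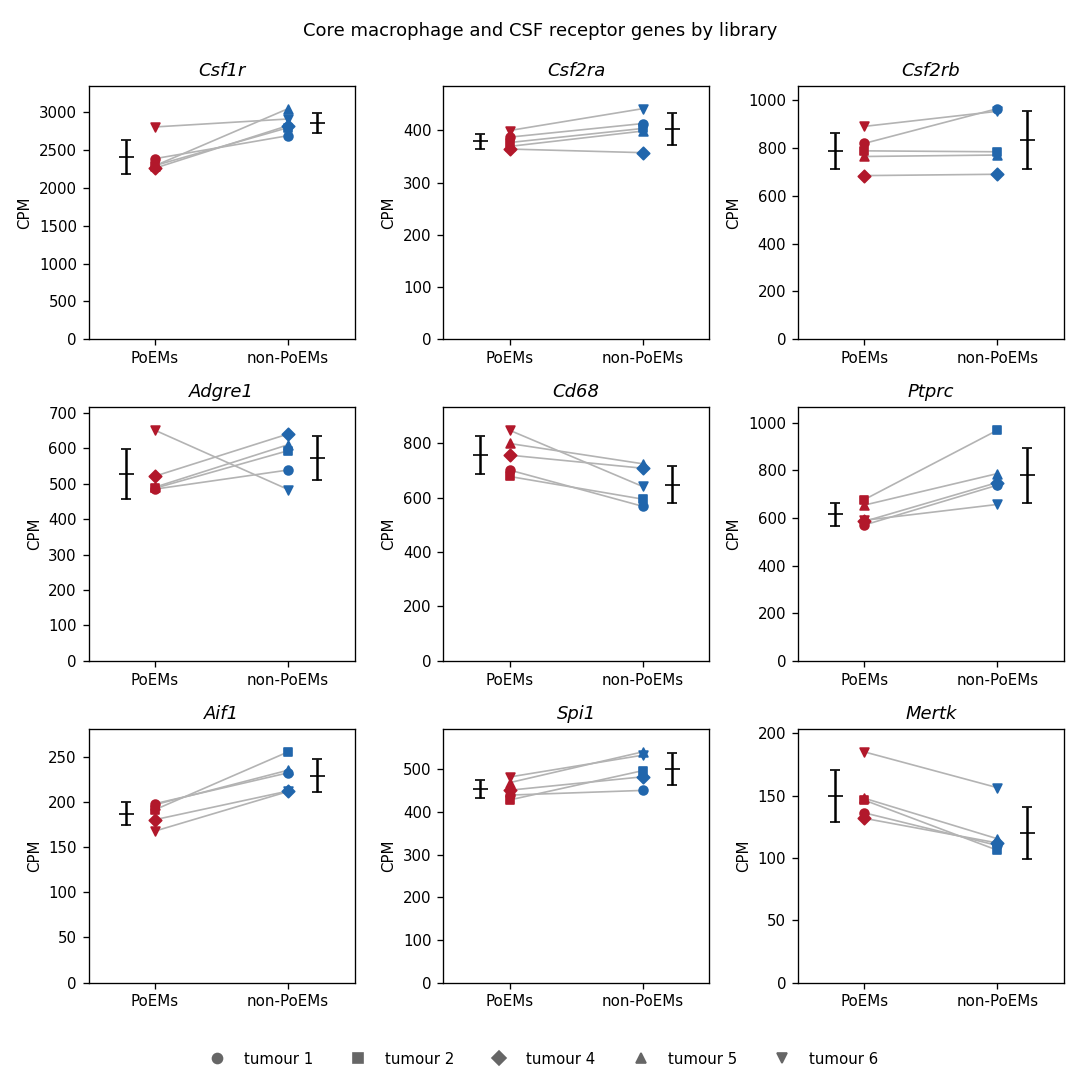
CPM of each member in PoEM (left, red) and non-PoEM (right, blue) libraries, with grey lines joining the fractions of a tumour and black bars giving mean ± SD (n = 5 each). Lines slope the same way in all 5 tumours for Csf1r, Ptprc, Aif1, Spi1, Cd68 and Mertk, while Adgre1 of tumour 6 runs against the other tumours.

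Markers of other cells moved with the same sort, and their part in the members' differences was not tested. Over all genes tested, 6.83% were called higher and 6.77% lower, and with the tumour as a block 13.8% and 14.3%. The counts of each marker list stand beside these shares. In bulk libraries fewer cells of a type and less RNA per cell cannot be told apart. Of 9 fibroblast markers tested, 8 were higher in PoEMs in the fits with and without the tumour as a block, with summed levels of 282.3 to 466.4 CPM in PoEM libraries and 28.37 to 38.32 CPM in non-PoEM libraries. The most abundant were the collagen genes Col3a1, at 140.6 ± 30.7 CPM in PoEMs and 8.47 ± 2.76 CPM in non-PoEMs, and Col1a1, at 121.9 ± 23.0 CPM in PoEMs and 7.915 ± 2.296 CPM in non-PoEMs (SD, n = 5 each).

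Of 5 tested eosinophil markers 4 were lower, and the block called all 5 lower (summed level of the list 4.758 to 14.37 CPM in PoEM and 58.59 to 148.7 CPM in non-PoEM libraries). The most abundant were Alox15, a lipoxygenase gene, at 4.98 ± 3.14 CPM in PoEMs and 51.7 ± 22.9 CPM in non-PoEMs, and Siglecf, at 2.55 ± 0.96 CPM in PoEMs and 16.4 ± 6.22 CPM in non-PoEMs (SD, n = 5 each). The granule genes Prg2, Epx, Ear1 and Ear6 were at 0 counts in all PoEM libraries. They had 116, 14, 1 and 4 counts over all non-PoEM libraries, so that Epx, Ear1 and Ear6 were near the floor in both fractions. Ear2 had 68 counts over all PoEM and 259 over all non-PoEM libraries.

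Neutrophil markers went both ways. Of 9 tested, 1 (Mmp8) was higher and 7 were lower, and with the block 2 were higher and 7 lower. The 7 lower were Retnlg, S100a9, S100a8, Ngp, Ltf, Cxcr2 and Csf3r. Retnlg, S100a9 and S100a8 had log2 fold changes of -5.13, -1.61 and -1.41, and Mmp8 had 1.36. The summed level of the list, 310.9 to 652.9 CPM in PoEM and 390.8 to 563.2 CPM in non-PoEM libraries, was higher in PoEMs in 4 of 5 tumours. Most of it was Mmp9, a matrix protease gene, at 350.4 ± 128.4 CPM in PoEMs and 185.4 ± 83.4 CPM in non-PoEMs (SD, n = 5 each, edgeR adjusted p = 0.125, and 6.93e-06 with the tumour as a block).

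Of 10 tested monocyte markers 4 were lower, and 6 with the block (1389 to 1570 CPM in PoEM and 1513 to 2284 CPM in non-PoEM libraries). The most abundant pair pointed in opposite directions. Ccr2, the chemokine receptor gene of inflammatory monocytes, had 423.7 ± 49.7 CPM in PoEMs and 964 ± 139.8 CPM in non-PoEMs (SD, n = 5 each, edgeR adjusted p = 2.34e-05). F13a1, which encodes a clotting factor subunit, had 893.5 ± 146.2 CPM in PoEMs and 730.6 ± 277.8 CPM in non-PoEMs (SD, n = 5 each) and was called in neither fit, with PoEMs above non-PoEMs in 3 of 5 tumours.

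Conventional dendritic cell markers had 2 of 7 lower, and 4 with the block (20.27 to 60.04 CPM in PoEM and 30.26 to 93.2 CPM in non-PoEM libraries); Cd209a had 20.3 ± 14.8 CPM in PoEMs and 27.5 ± 18.9 CPM in non-PoEMs, and Batf3 5.05 ± 0.70 CPM in PoEMs and 8.93 ± 2.03 CPM in non-PoEMs. Cd79b, the single tested B and plasma cell marker, was lower, at 2.04 ± 0.38 CPM in PoEMs and 5.25 ± 1.80 CPM in non-PoEMs, and the list summed to 1.753 to 21.01 CPM in PoEM and 3.753 to 46.76 CPM in non-PoEM libraries, with Jchain high in tumour 2. Gata2, the single tested marker of mast cells and basophils, was lower (9 counts over all PoEM and 154 over all non-PoEM libraries). The untested Mcpt8 had 0.0998 ± 0.0348 CPM in PoEMs and 1.34 ± 0.77 CPM in non-PoEMs. Ms4a2 and Fcer1a were at 0 counts in all PoEM libraries and had only 13 and 8 counts over all non-PoEM libraries. Tpsb2, also untested, had 9 counts over all PoEM and 12 over all non-PoEM libraries.

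The edgeR test and DESeq2 called 0 of 2 tested T and NK cell markers without the block, Cd2 and Lck, and 0 of 3 endothelial markers, of which Kdr and Cdh5 were the most abundant. At an unadjusted p under 0.05 these lists had 1 and 0 genes, and with the block 1 T and NK cell marker was lower and 0 endothelial markers were called. Their summed levels were 3.194 to 12.27 CPM in PoEM and 3.127 to 26.66 CPM in non-PoEM libraries for T and NK cells, and 24.8 to 42.44 CPM in PoEM and 22.05 to 47.01 CPM in non-PoEM libraries for endothelial cells. Of 7 tested epithelial and tumour cell markers 0 were called by edgeR or DESeq2 without the block (1 at an unadjusted p under 0.05), and with it 1 was higher and 2 were lower. The higher one was Cdh1, the E-cadherin gene, at 124 ± 65.1 CPM in PoEMs and 75.9 ± 46.8 CPM in non-PoEMs (SD, n = 5 each, edgeR adjusted p = 0.366, and 0.00683 with the tumour as a block), while the keratin gene Krt18 had 17.6 ± 3.76 CPM in PoEMs and 20.4 ± 2.43 CPM in non-PoEMs. The summed level of these markers was higher in PoEMs in 5 of 5 tumours (91.63 to 254.9 CPM in PoEM and 74.67 to 205.1 CPM in non-PoEM libraries). Most of that sum was Cdh1. The 2 genes lower with the block were Epcam and Krt8 (edgeR adjusted p = 0.0356 and 0.0323 with the tumour as a block). Both were lower in PoEMs in 5 of 5 tumours. Ptprc, the CSF receptors and Aif1 are also expressed by several of the leukocytes named here, and fibroblasts lack Ptprc. What part any of these cells had in the members' levels was not tested.

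Csf1r was the member with the most counts. It encodes the CSF1 receptor (ENSMUSG00000024621, chromosome 18, 61100598 to 61132149 of GRCm38, plus strand, protein-coding). The gene Hmgxb3 overlaps it on the opposite strand, and as the use of strand in counting is not stated, reads of the overlap cannot be told apart. It measured 2383, 2292, 2258, 2290 and 2801 CPM in PoEMs of tumours 1, 2, 4, 5 and 6, against 2686, 2792, 2819, 3042 and 2906 CPM in non-PoEMs. PoEM tumour 6 stood above the other PoEM libraries and inside the range of the non-PoEMs, and without it the groups were apart. The means were 2405 ± 226.5 CPM in PoEMs and 2849 ± 133.2 CPM in non-PoEMs (SD, n = 5 each), so that the log2 fold change was -0.24 ± 0.08 (SE, edgeR adjusted p = 0.0493), and PoEMs were lower in 5 of 5 tumours. The call sat at the threshold: on leaving out any of PoEM tumours 1, 2, 4 and 5 or non-PoEM tumours 2, 4, 5 and 6, the adjusted p lay between 0.0678 and 0.111, while the log2 fold change stayed between -0.30 and -0.22 over all 10 single omissions. With the tumour as a block the change was -0.25 ± 0.06 (SE, edgeR adjusted p = 0.00485), and it was called in each of 5 blocked fits that left out a tumour.

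Neither chain of the GM-CSF receptor passed the test. Csf2ra, the ligand-binding chain (ENSMUSG00000059326, chromosome 19, 61223957 to 61228429, minus strand), measured 387, 376.7, 364.2, 369.3 and 399.7 CPM in PoEMs of tumours 1, 2, 4, 5 and 6, against 413, 403.6, 357.3, 398.6 and 441.5 CPM in non-PoEMs. Csf2rb, the chain that signals for GM-CSF, IL3 and IL5 (ENSMUSG00000071713, chromosome 15, 78325752 to 78353847, plus strand), measured 818.9, 787.9, 684.4, 764.3 and 890.1 CPM in PoEMs, against 964.2, 784, 690, 770.4 and 953.2 CPM in non-PoEMs. The groups overlapped for both genes. In both fractions and for both chains, tumours 1 and 6 were highest, then tumour 2, then tumour 5, with tumour 4 lowest. The log2 fold change was -0.09 ± 0.06 for Csf2ra (SE, edgeR adjusted p = 0.416, 95% interval -0.23 to 0.05) and -0.08 ± 0.10 for Csf2rb (SE, edgeR adjusted p = 0.669, 95% interval -0.30 to 0.14). Neither was called with the tumour as a block.

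Csf2rb has a neighbouring paralog, Csf2rb2, which in mice serves IL3 alone, and how reads shared by the paralogs were assigned is not stated in the sources used here. Their split is therefore uncertain. Csf2rb2 averaged 431.3 ± 50.6 CPM in PoEMs and 443.1 ± 59.2 CPM in non-PoEMs (SD, n = 5 each), so that the log2 fold change was -0.04 ± 0.10 (SE, edgeR adjusted p = 0.849).

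The main ligand differed by more than its receptor within every tumour. Csf1, which encodes the CSF1 cytokine, measured 118.3, 70.1, 55.2, 87.6 and 208.6 CPM in PoEMs of tumours 1, 2, 4, 5 and 6, against 52.6, 38.4, 31.4, 45.6 and 105.5 CPM in non-PoEMs. The tumours differed widely and the groups overlapped, but PoEMs were higher in 5 of 5 tumours, by 0.82 to 1.17 on the log2 scale. Its log2 fold change was 0.98 ± 0.44 without the block (SE, edgeR adjusted p = 0.179) and 0.96 ± 0.06 with it (SE, edgeR adjusted p = 4.33e-08); without tumour 6 the Csf1 log2 fold change was called also with no block (adjusted p = 0.0436). Fibroblasts also make CSF1, and their markers were higher in the same libraries (282.3 to 466.4 CPM in PoEMs and 28.37 to 38.32 CPM in non-PoEMs), whose part was not tested. The other ligands were scarce: Csf2 had 5 counts over all PoEM and 51 over all non-PoEM libraries, Il34 had 23 and 18, and neither passed the filter on low counts. Of 7 tested genes in the list of CSF ligands and related cytokine receptors, none was higher in the edgeR test, also at an unadjusted p under 0.05 or with DESeq2. The fit with the tumour as a block had 1 higher and 4 lower, where 13.8% and 14.3% of all genes were called. Without the block 3 were lower (median -0.78 on the log2 scale, beside 0.01 over all genes tested), where 6.83% of all genes were called higher and 6.77% lower. The 3 were Il5ra, the IL5 receptor chain typical of eosinophils (4 counts over all PoEM and 249 over all non-PoEM libraries), Csf3r, the G-CSF receptor best known from neutrophils (85.5 ± 11.9 CPM in PoEMs and 146.4 ± 30.8 CPM in non-PoEMs, SD, n = 5 each, edgeR adjusted p = 0.0055), and its ligand Csf3 (2.24 ± 0.79 CPM in PoEMs and 4.41 ± 0.58 CPM in non-PoEMs, SD, n = 5 each, edgeR adjusted p = 0.0119). Il5ra and Csf3r are themselves counted among the eosinophil and neutrophil markers above. The other 4 tested eosinophil markers had log2 fold changes below 0, while the other neutrophil markers went both ways.

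**Figure D2:**
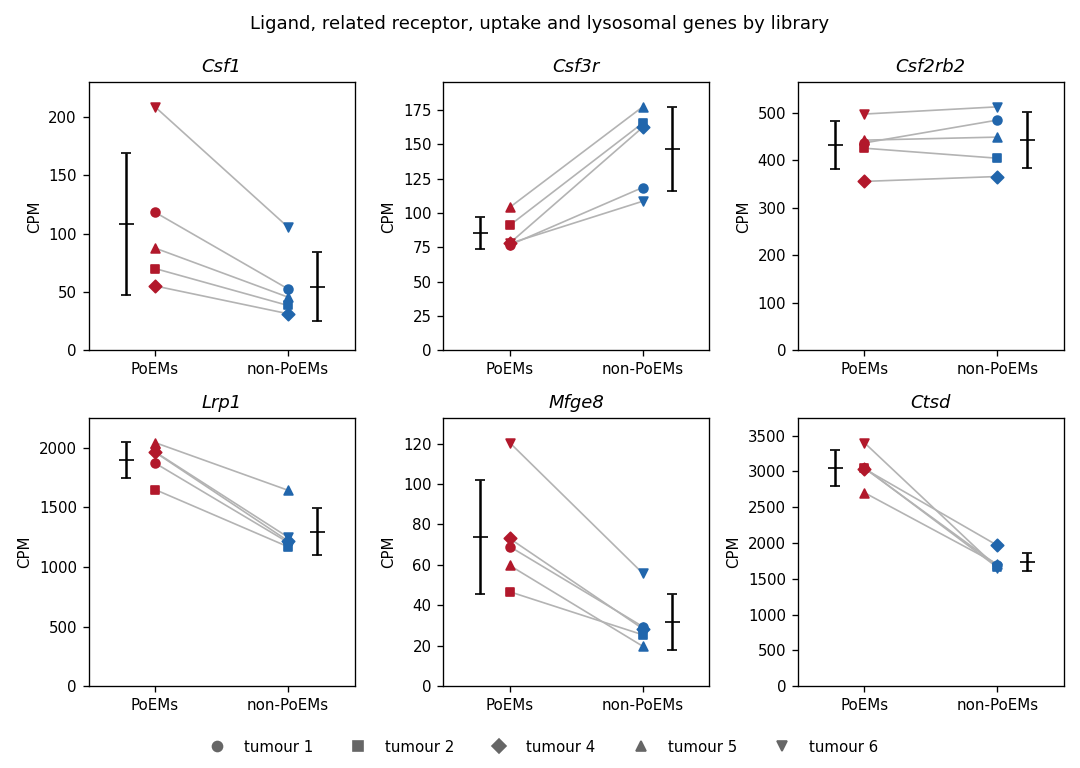
CPM of Csf1, Csf3r, Csf2rb2, Lrp1, Mfge8 and Ctsd in PoEM (left) and non-PoEM (right) libraries, with lines joining the fractions of a tumour and bars giving mean ± SD (n = 5 each). Csf1 ranges from 55.2 to 208.6 CPM among PoEM libraries, yet every tumour's line falls toward its non-PoEM library, and the lines of Csf2rb2 are nearly level.

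Of 28 tested signalling genes downstream of these receptors, 1 was higher and 5 were lower (median -0.09 on the log2 scale). The fit with the tumour as a block had 1 higher and 12 lower. The shares over all genes tested were 6.83% higher and 6.77% lower, and 13.8% and 14.3% with the block. The higher gene was Bcl2l1, which encodes the survival protein BCL-XL, at 139 ± 6.21 CPM in PoEMs and 100.2 ± 5.62 CPM in non-PoEMs (SD, n = 5 each, edgeR adjusted p = 0.000178). Pim1, a kinase gene that STAT5 induces, was at 386.4 ± 15.5 CPM in PoEMs and 535.8 ± 45.5 CPM in non-PoEMs (SD, n = 5 each, edgeR adjusted p = 0.000686), and the feedback inhibitor gene Socs3 fell by 0.44 ± 0.09 on the log2 scale (SE, edgeR adjusted p = 0.00562). Pik3cd, which encodes a leukocyte PI3-kinase subunit, fell by 0.35 ± 0.07 (SE, edgeR adjusted p = 0.00524). Fgr, which encodes a Src-family kinase, was also among the 5, and its call was lost without PoEM tumour 4 or non-PoEM tumour 5.

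**Figure D3:**
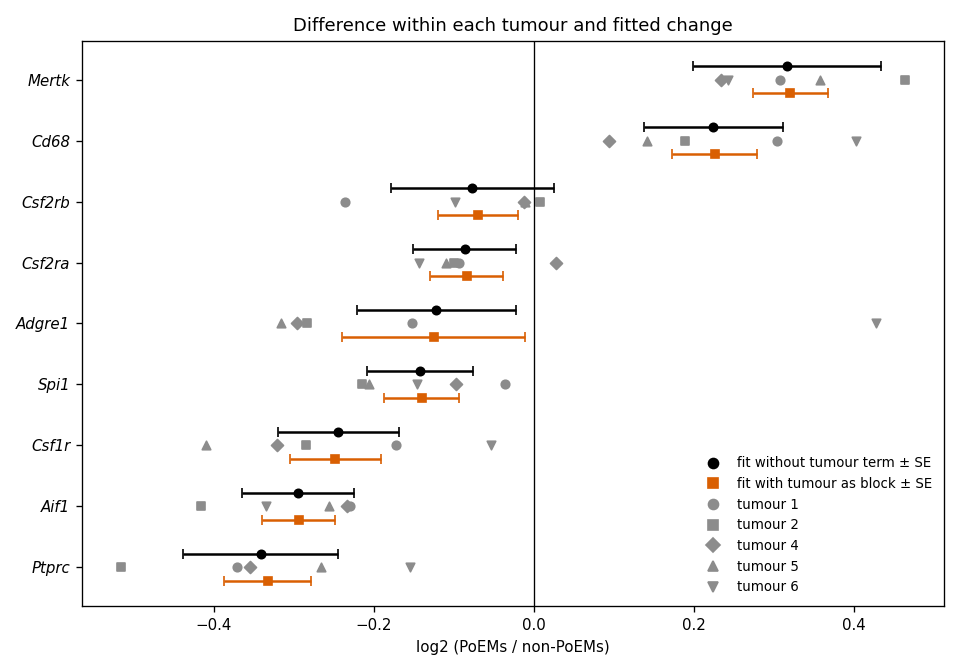
Log2 ratio of PoEMs to non-PoEMs for each member within each tumour (grey symbols) and as fitted without (black) and with (orange) the tumour as a block, ± SE. The fitted values hardly differ between the fits, while the SE is smaller with the block for each member but Adgre1, where tumour 6 lies at 0.43 and the other tumours between -0.32 and -0.15.

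Spi1, the gene for PU.1 (ENSMUSG00000002111, chromosome 2, 91082390 to 91115756, plus strand), was slightly lower in PoEMs of every tumour. It measured 439.7, 428.3, 451.2, 468.9 and 482.2 CPM in PoEMs of tumours 1, 2, 4, 5 and 6, against 450.7, 497, 482.6, 541.1 and 533.3 CPM in non-PoEMs. The groups overlapped, and the differences within tumours ran from -0.21 to -0.04 on the log2 scale. The log2 fold change was -0.14 ± 0.07 (SE, edgeR adjusted p = 0.179, 95% interval -0.28 to 0.00). With the tumour as a block it was -0.14 ± 0.05 (SE, edgeR adjusted p = 0.0377), a call lost on leaving out any of tumours 2, 4, 5 and 6 (adjusted p at most 0.160), and DESeq2 with the block did not call it (adjusted p = 0.0593).

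Of 19 tested genes of other macrophage transcription factors none was higher in the edgeR test, also at an unadjusted p under 0.05 or with DESeq2. In the edgeR test 4 were lower (median -0.18 on the log2 scale, beside 0.01 over all genes tested), where 6.83% of all genes were called higher and 6.77% lower. The fit with the tumour as a block had 1 higher and 12 lower, beside 13.8% and 14.3% of all genes. Those called without the block were Spic, a PU.1 relative known from red pulp macrophages (1.51 ± 0.49 CPM in PoEMs and 4.925 ± 3.101 CPM in non-PoEMs, SD, n = 5 each, edgeR adjusted p = 0.0139), Tfe3, a regulator of lysosomal genes (137.3 ± 5.67 CPM in PoEMs and 165.6 ± 15.99 CPM in non-PoEMs, SD, n = 5 each, edgeR adjusted p = 0.0192), Zeb2, a factor that upholds tissue macrophage identity (493.4 ± 30.4 CPM in PoEMs and 623.9 ± 81.8 CPM in non-PoEMs, SD, n = 5 each, edgeR adjusted p = 0.0253), and Bach1 (edgeR adjusted p = 0.0381). The call for Tfe3 was lost without PoEM tumour 4 (adjusted p = 0.053), that for Zeb2 without PoEM tumour 1 or non-PoEM tumour 2, 4 or 5 (adjusted p at most 0.0675), and that for Bach1 without PoEM tumour 1, 2 or 4 or non-PoEM tumour 2, 5 or 6 (adjusted p at most 0.0908). Irf8, which works with PU.1 in monocyte development, was at 386.9 ± 20.2 CPM in PoEMs and 358.6 ± 25.2 CPM in non-PoEMs and was called in neither fit (edgeR adjusted p = 0.295, and 0.124 with the tumour as a block).

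Ptprc showed the largest decrease of the members. It encodes CD45, the membrane phosphatase carried by nucleated blood cells (ENSMUSG00000026395, chromosome 1, 138062861 to 138175708, minus strand). It measured 570.4, 677.2, 585.6, 654 and 590.3 CPM in PoEMs of tumours 1, 2, 4, 5 and 6, against 737.7, 968.3, 748.9, 786.4 and 656.9 CPM in non-PoEMs. PoEMs were lower in 5 of 5 tumours, and the groups overlapped only through the lowest non-PoEM library, tumour 6, which lay under the highest PoEM library, tumour 2. Its log2 fold change was -0.34 ± 0.10 (SE, edgeR adjusted p = 0.0345), and -0.33 ± 0.05 with the tumour as a block (SE, edgeR adjusted p = 0.000439). Without the block the call was lost on leaving out PoEM tumour 1, 4 or 6 or non-PoEM tumour 2 or 5, with adjusted p between 0.0648 and 0.0855.

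Other genes common to leukocytes were called in both directions. Of 20 tested pan-leukocyte genes 2 were higher and 1 was lower (median -0.11 on the log2 scale), where 6.83% of all genes were called higher and 6.77% lower. The fit with the tumour as a block had 5 higher and 6 lower, beside 13.8% and 14.3% of all genes. Cd48, which encodes a surface ligand of lymphocytes and myeloid cells, was lower, at 69.5 ± 6.96 CPM in PoEMs and 92.8 ± 13.7 CPM in non-PoEMs (SD, n = 5 each, edgeR adjusted p = 0.0179). Itgb2, the beta chain of CD11B/CD18, was higher, at 847.8 ± 56.7 CPM in PoEMs and 691.4 ± 55.9 CPM in non-PoEMs (SD, n = 5 each, edgeR adjusted p = 0.0188). Lcp1, an actin-bundling protein gene, was also higher (1935 ± 89.4 CPM in PoEMs and 1680 ± 34.7 CPM in non-PoEMs, SD, n = 5 each, edgeR adjusted p = 0.0377); its call was lost without any of PoEM tumours 1, 4, 5 and 6 or non-PoEM tumours 1, 2, 4 and 5 (adjusted p at most 0.097).

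Adgre1 encodes F4/80, the adhesion receptor on which both fractions were gated (ENSMUSG00000004730, chromosome 17, 57358691 to 57483527, plus strand). It measured 484.4, 486.9, 521, 489.9 and 650.3 CPM in PoEMs of tumours 1, 2, 4, 5 and 6, against 538.2, 592.7, 639.8, 609.6 and 483.3 CPM in non-PoEMs. In tumours 1, 2, 4 and 5 the PoEM library was lower, by 0.15 to 0.32 on the log2 scale, and in tumour 6 it was higher by 0.43, with the highest PoEM and the lowest non-PoEM value of the series. Over all tumours the log2 fold change was -0.12 ± 0.10 (SE, edgeR adjusted p = 0.463, 95% interval -0.34 to 0.09), and it was not called with the block. Without tumour 6 it was called lower in both fits, at -0.26 on the log2 scale (edgeR adjusted p = 0.033, and 0.00155 with the tumour as a block).

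Aif1 kept its call in every omission of a single library. It encodes IBA1, the calcium-binding, actin-bundling protein used as a stain for macrophages and microglia (ENSMUSG00000024397, chromosome 17, 35170991 to 35176068, minus strand). It measured 198.1, 191.5, 180.4, 197 and 167.8 CPM in PoEMs of tumours 1, 2, 4, 5 and 6, against 232.3, 255.5, 212.1, 235.2 and 211.6 CPM in non-PoEMs. Every PoEM library lay below every non-PoEM library. The log2 fold change was -0.29 ± 0.07 (SE, edgeR adjusted p = 0.015), lower in 5 of 5 tumours, and the call was kept in all 10 single omissions (adjusted p between 0.0118 and 0.0431). It was lost when both libraries of tumour 2 were left out without the block (adjusted p = 0.0643).

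Cd68 went the other way. It encodes a heavily glycosylated membrane protein of late endosomes and lysosomes (ENSMUSG00000018774, chromosome 11, 69664213 to 69666153, minus strand). It measured 701.1, 677.6, 755.9, 798.7 and 847.3 CPM in PoEMs of tumours 1, 2, 4, 5 and 6, against 568, 594.3, 707.9, 724.2 and 640.8 CPM in non-PoEMs. The groups overlapped, but PoEMs were higher within 5 of 5 tumours, by 0.09 to 0.40 on the log2 scale. On the log2 scale the fitted change was 0.22 ± 0.09 (SE, edgeR adjusted p = 0.109), and 0.23 ± 0.05 with the tumour as a block (SE, edgeR adjusted p = 0.00582), where the call was kept on leaving out any tumour (adjusted p at most 0.029).

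Of 20 tested genes of a core macrophage signature, 2 were higher and none was lower (median 0.03 on the log2 scale), where 6.83% of all genes were called higher and 6.77% lower. In this signature 3 were lower at an unadjusted p under 0.05 and 2 with DESeq2. The fit with the tumour as a block had 4 higher and 4 lower, beside 13.8% and 14.3% of all genes. Ctsd, which encodes the lysosomal protease cathepsin D, rose most, at 3048 ± 247.1 CPM in PoEMs and 1734 ± 131.3 CPM in non-PoEMs (SD, n = 5 each, edgeR adjusted p = 3.95e-05). The other was Itgam, the gene of the sorted marker CD11B (1384 ± 59.4 CPM in PoEMs and 1185 ± 69.4 CPM in non-PoEMs, SD, n = 5 each, edgeR adjusted p = 0.0347); the call on the Itgam log2 fold change was lost without any of PoEM tumours 1, 2, 4 and 6 or non-PoEM tumours 1, 2, 4 and 6 (adjusted p at most 0.0875). The complement genes C1qa, C1qb and C1qc, typical of tissue macrophages, had log2 fold changes of 0.07, -0.01 and 0.03 and were called in neither fit. Fcgr1, which encodes the Fc receptor CD64, measured 413.2 ± 39.0 CPM in PoEMs and 489.7 ± 44.0 CPM in non-PoEMs (SD, n = 5 each, edgeR adjusted p = 0.0642, and 0.000811 with the tumour as a block).

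Mertk, the lowest member by counts, was also higher in PoEMs of every tumour. It encodes a receptor kinase of the TAM family, through which macrophages bind and engulf dying cells (ENSMUSG00000014361, chromosome 2, 128698956 to 128802894, plus strand). An antisense gene, Gm14011, overlaps it, and whether counting used strand is not stated in the sources used here. Mertk measured 136.2, 146.4, 131.8, 147.9 and 185.1 CPM in PoEMs of tumours 1, 2, 4, 5 and 6, against 110, 106.2, 112, 115.4 and 156.4 CPM in non-PoEMs. Tumour 6 was highest in both fractions, and without its non-PoEM library the groups were apart. The log2 fold change was 0.32 ± 0.12 (SE, edgeR adjusted p = 0.0976), and 0.32 ± 0.05 with the tumour as a block (SE, edgeR adjusted p = 0.000193). Without the block it was called on leaving out non-PoEM tumour 6 (log2 fold change 0.43, edgeR adjusted p = 0.00949) or both libraries of tumour 6 (0.34, adjusted p = 0.00576).

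Genes of the same uptake pathway showed 3 of 14 tested higher and none lower in the edgeR test (median -0.01 on the log2 scale; 1 was lower at an unadjusted p under 0.05 and with DESeq2), and 4 higher with the tumour as a block. Lrp1, a large endocytic receptor for dying cells and protease complexes, rose by 0.55 ± 0.10 on the log2 scale (SE, edgeR adjusted p = 0.00334), to 1649 to 2043 CPM in PoEM libraries against 1169 to 1643 CPM in non-PoEM libraries. Mfge8, a secreted bridge between dying cells and integrins, measured 73.8 ± 28.01 CPM in PoEMs and 31.8 ± 14.0 CPM in non-PoEMs (SD, n = 5 each, edgeR adjusted p = 0.0373); the call on the Mfge8 log2 fold change was lost without any of PoEM tumours 1, 4, 5 and 6 or non-PoEM tumours 1, 2, 4 and 5 (adjusted p at most 0.0932). The scavenger receptor gene Stab1 was at 1785 ± 346.6 CPM in PoEMs and 1291 ± 173.7 CPM in non-PoEMs (SD, n = 5 each, edgeR adjusted p = 0.0323), a call lost without PoEM tumours 1, 4 or 6 or non-PoEM tumours 1, 2 or 6 (adjusted p at most 0.0804). The related receptor gene Axl had 764.9 ± 84.1 CPM in PoEMs and 829.6 ± 142.6 CPM in non-PoEMs. Its ligand genes Gas6 and Pros1 had log2 fold changes of -0.23 and -0.47. These 3 were called in neither edgeR fit, and Pros1 was the gene lower at an unadjusted p under 0.05 (edgeR unadjusted p = 0.0186). Tyro3, the third gene of the TAM receptors, was scarce, with 86 counts over all PoEM and 40 over all non-PoEM libraries. It was higher in PoEMs in 5 of 5 tumours, with a log2 fold change of 1.11 ± 0.39 (SE; adjusted p = 0.0752 by edgeR, and 0.011 with the tumour as a block). Markers of fibroblasts, a list that holds neither Lrp1 nor Mfge8, were higher in the same libraries, with summed levels of 282.3 to 466.4 CPM in PoEMs and 28.37 to 38.32 CPM in non-PoEMs.

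**Figure D4:**
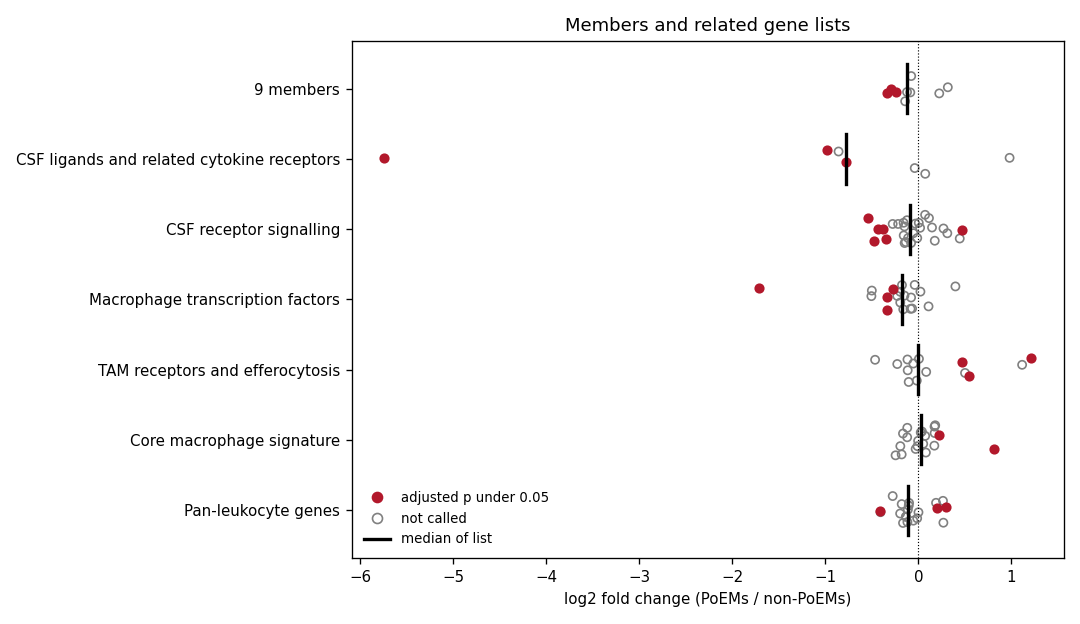
Log2 fold change of every tested gene of the 9 members and the 6 related lists, with filled symbols at an edgeR adjusted p under 0.05 and bars at the list medians. The members lie between -0.34 and 0.32, and the widest change is that of Il5ra at -5.74.

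Levels of different genes were compared per kilobase of merged exons. Cd68 and Csf1r stood highest, at 601.5 ± 55.3 and 416.5 ± 39.2 CPM per kilobase in PoEMs and 514.7 ± 54.4 and 493.4 ± 23.1 CPM per kilobase in non-PoEMs (SD, n = 5 each). In PoEMs all Cd68 values were above all Csf1r values, whereas in non-PoEMs the ranges of these neighbours overlapped. Spi1 and Adgre1 followed at 168.5 ± 8.07 and 162.6 ± 21.9 CPM per kilobase in PoEMs and 185.9 ± 13.8 and 176.9 ± 19.2 CPM per kilobase in non-PoEMs, a pair that did not differ beyond its spread in either fraction. Next in PoEMs came Csf2ra at 132.1 ± 4.96, Aif1 at 122 ± 8.36 and Csf2rb at 108.4 ± 10.3 CPM per kilobase, each overlapping its neighbour. In non-PoEMs Aif1 stood at 149.7 ± 11.9, Csf2ra at 140.3 ± 10.6 and Csf2rb at 114.4 ± 16.6 CPM per kilobase. Mertk and Ptprc were lowest, at 34.5 ± 4.85 and 33.6 ± 2.57 CPM per kilobase in PoEMs and 27.7 ± 4.76 and 42.6 ± 6.31 CPM per kilobase in non-PoEMs. The place of Ptprc rests on its merged exon length of 18.313 kilobases; per kilobase of its longest transcript it stood at 107.2 CPM in PoEMs and 135.8 CPM in non-PoEMs. The order depended on the length used. With the longest transcript for all members, Csf1r led in non-PoEMs (606 CPM per kilobase, and 526 for Cd68). Aif1 then stood above Adgre1 and Csf2ra in PoEMs (213.7, 162.6 and 166.6 CPM per kilobase) and above Spi1 in non-PoEMs (262.1 and 246.3 CPM per kilobase). Adgre1 came sixth in both fractions, and Ptprc stood above Mertk in both.

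**Figure D5:**
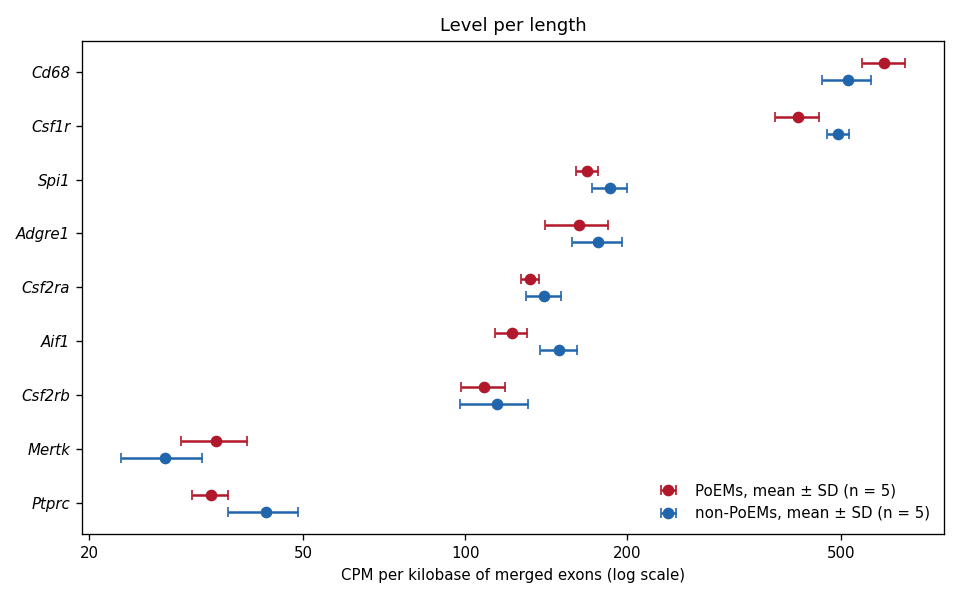
Level of each member in CPM per kilobase of merged exons on a log scale, mean ± SD of 5 PoEM (red, upper) and 5 non-PoEM (blue, lower) libraries. Cd68 and Csf1r lie above 400 CPM per kilobase, the middle members between 108.4 and 185.9, and Mertk and Ptprc below 43.

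Among 5813 other genes whose mean log2 CPM was at least 5, those whose log2 CPM most resembled a member's over the 10 libraries were found for Csf1r and for the other members called with no block. Closest to Csf1r were 2310047M10Rik (Pearson r = 0.976) and the predicted gene Gm6085 (r = 0.953). Closest to Ptprc were Ciita, the master regulator gene of MHC class II transcription (r = 0.970), and 1600014C10Rik (r = 0.967). Closest to Aif1 were Gmip (r = 0.988) and Adrbk2 (r = 0.981). These 10 libraries come in pairs from 5 tumours and differ by sort, so the values describe likeness in these libraries and carry no test.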

How the data were processed

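Per the labels' protocols, tumours were digested with collagenase and dispase, red blood cells were lysed, and RNA of the sorted cells was pre-amplified with SMART-Seq, a method without molecular identifiers here; counts are thus of reads, and counting error is only part of their error. The authors deposited raw counts per gene for 46603 genes, 1 column per library. The tools named in the submitters' processing notes are featureCounts 1.5.3, STAR 2.5.2b, Bowtie2 2.3.3.1 and cutadapt 1.15; genome build, annotation, strand and multi-mapping rules were not given in the sources used here. No column was left unmapped and no row lacked a gene. The test was that of edgeR 4.0.16 under R 4.3.3 (filterByExpr with minimum count 10 and total 15, TMM, robust quasi-likelihood fit with group as the term, Benjamini-Hochberg adjustment over 13595 genes); DESeq2 1.42.0 was an alternative. SE is the absolute log2 fold change divided by the square root of the F statistic. Both fits were tested on simulated counts, where nearly all changes of 1 on the log2 scale were called, fewer of the smaller ones, and few unchanged genes. The simulated counts had the same dispersion for all genes and no tumour effect. They therefore cannot show how the blocked fit behaves on paired fractions, and they held no change as small as those of the members. The tumour number pairs the fractions because both came from the same tumour; deviations from the group means correlated between the fractions of each tumour (0.282 to 0.674). Libraries of the same group differed by more than sampling noise (chi-square per gene at least 7.58). Exon lengths and positions are those of GENCODE M21 (GRCm38), which held 46091 of the identifiers, a build not stated for the counts. The members and lists were chosen with earlier results of these data known. Genes named are the members, Pdpn, the called list genes with the lowest p (up to 4 a list), the 2 most abundant genes of each marker list, and the 2 genes most like Csf1r and each called member. The ligands Csf1, Csf2 and Il34 were named after their values were seen. So were Csf2rb2, Fgr, Irf8, Axl, Gas6, Pros1, Fcgr1, Tyro3, Cd14, Ear2, Tpsb2, Epcam, Krt8, the C1q genes and the markers at 0 in PoEMs. Mmp8 and the lower neutrophil markers other than Csf3r were also named after their values were seen. Some genes of the lists are not reported here by name.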

Additional observations from a re-analysis of the deposited data

Results flagged for a closer look

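In 3 of the 18 sets of 5 libraries checked for the members, 1 library stood far from the other 4 (its gap to the nearest library exceeded Dixon's limit), where chance flags about 1 in 20 sets, and all 3 were libraries of tumour 6. Csf1r was at 2801 CPM in PoEM tumour 6, with the other PoEM libraries at 2258 to 2383 CPM. Adgre1 was at 650.3 CPM in PoEM tumour 6, with the others at 484.4 to 521 CPM. Mertk was at 156.4 CPM in non-PoEM tumour 6, with the others at 106.2 to 115.4 CPM.

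Among the related genes, libraries of tumour 6 also stood apart for Csf1 (105.5 CPM in non-PoEMs, others 31.4 to 52.6), Mfge8 (55.9 CPM in non-PoEMs, others 19.8 to 29.5), Cdh1 (156.9 CPM in non-PoEMs, others 37.7 to 70.4) and Tyro3 (2.56 CPM in PoEMs, others 0.703 to 1.22). Libraries of tumour 2 stood apart for Spic (10.35 CPM in non-PoEMs), Lck (6.48 CPM in non-PoEMs) and Jchain (7.15 CPM in PoEMs and 15.1 CPM in non-PoEMs). The remaining sets were Lrp1 in non-PoEM tumour 5 (1643 CPM), Ctsd in non-PoEM tumour 4 (1966 CPM), Cd209a in PoEM tumour 5 (45.9 CPM), Cd2 and Cd14 in non-PoEM tumour 1 (1.41 and 2701 CPM) and Gata2 in PoEM tumour 4 (0.0652 CPM), where the library held 1 count and each of the other PoEM libraries 2, a difference of a single read. Over all genes checked in this way, 17 of 150 sets were flagged.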

How the results depend on the processing

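No member changed sign under any of the 26 alternative settings, and RLE scaling, library size alone and DESeq2 without the block left every member's call as it was. Without the filter on low counts Csf1r was no longer called (log2 fold change -0.24, adjusted p = 0.0699). With the replicate block, which pairs the fractions of a tumour, the genes called higher numbered 1880 and the genes called lower 1950 (929 and 920 without it), and these held 1846 of the 1849 called without it. The block brought calls for Cd68 (0.23), Spi1 (-0.14) and Mertk (0.32), 2 of them higher, and changed no other member's call. DESeq2 with the block gave 1401 genes called lower, and 2 members higher, Cd68 at 0.22 and Mertk at 0.32.

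Leaving out 1 library or both libraries of a tumour, with and without the block, gave 437 to 1925 genes called higher and 482 to 2016 genes called lower, 0 to 2 members called higher and 0 to 4 lower. The log2 fold change then ranged over -0.30 to -0.21 for Csf1r, -0.26 to -0.076 for Adgre1, 0.18 to 0.27 for Cd68, -0.40 to -0.25 for Ptprc, -0.33 to -0.25 for Aif1, -0.18 to -0.11 for Spi1 and 0.23 to 0.43 for Mertk. Without the block, omitting both libraries of any of tumours 1, 2, 4 and 5 ended the calls of Csf1r and Ptprc, and omitting those of tumour 2 also ended that of Aif1. For 5 other genes, called in no fit, the sign changed on an omission: Lck log2 fold change (-1.18 to 0.87), Cdh5 log2 fold change (-0.25 to 0.014), Csf2rb2 log2 fold change (-0.11 to 0.018), C1qb log2 fold change (-0.052 to 0.028) and C1qc log2 fold change (-0.0087 to 0.055). The cause of these shifts was not tested. Csf2 and Il34 had too few counts to be tested at this depth.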
